A study of Arabidopsis thaliana with 12 samples.

Results

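The chloroplast genome of Arabidopsis thaliana was followed through the 80 plastid transcripts measured in the series, out of 20623 transcripts tested from all genomes. They are the rows whose identifier starts with ATCG and whose value reached 10 in at least 3 of the 12 libraries. Of 81 plastid rows, ATCG01000 was left out, and ATCG00210 lay just inside the filter. The groups were ap1/cal SNP, ap1/cal Mock, Col-0 SNP and Col-0 Mock, each with 3 libraries of whole seedlings at 7 days after germination. Col-0 is the wild type, and ap1/cal carries mutations in the flower meristem genes APETALA1 and CAULIFLOWER. SNP groups spent 24 h on MS medium plates with 1 mM sodium nitroprusside, a donor of nitric oxide (NO) that is an iron and cyanide complex, and Mock groups on plates without it. RNA was selected for poly(A) tails in all libraries. The study asked whether ap1/cal seedlings react to NO as Col-0 seedlings do.

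The chloroplast genome encodes core subunits of both photosystems, the cytochrome b6f complex, the ATP synthase and the NDH complex, the Rubisco large subunit, plastid ribosomal proteins and the core of a bacterial-type RNA polymerase. This polymerase works with sigma factors and associated proteins made in the nucleus, beside phage-type polymerases that are also nuclear. Plastid genes are often transcribed together in long units that are then processed. In chloroplasts a poly(A) tail marks RNA for decay, so poly(A)-selected libraries hold a part of the plastid RNA pool and do not measure all of it. In bulk seedlings, fewer plastid-rich cells and less plastid RNA per cell cannot be told apart.

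Of the members described here, 4 had a name in the annotation. ATCG00660 is rpl20 (large ribosomal subunit protein L20), ATCG00670 is clpP (the plastid-encoded subunit of the Clp protease), ATCG00530 is cemA (an envelope membrane protein), and ATCG00430 is called photosystem II reaction center protein G. The plastid annotation holds 0 genes named psbG, so this last name was matched to no gene and ATCG00430 is not read as a photosystem II transcript. The other members are given by identifier, and their functions were not used. Identifier numbers followed the order of genes on nuclear chromosomes, and did so for 3 plastid identifiers that could be placed by name, so neighbours in number are read here as neighbours on the genome.

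The estimated depth was 22.5 to 59.7 in units of 1e6 reads per library, and 68 of the 80 transcripts had at least 100 estimated reads in every library. The deposited values are a normalized signal, scaled separately for each genotype. AP1 and CAL did not pass into the test, so the genotype labels were not checked by them. Plastid transcripts varied more between replicates than other genes. The median SD over replicates on the log2 scale was 0.66 in ap1/cal SNP, 0.88 in ap1/cal Mock, 0.36 in Col-0 SNP and 0.76 in Col-0 Mock for plastid transcripts, against 0.15, 0.11, 0.12 and 0.14 for all genes in the same groups.

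A few libraries stood apart in their plastid transcripts. In ap1/cal SNP 1 the median plastid transcript lay 2.14-fold below the mean of the other ap1/cal SNP libraries. In ap1/cal Mock 3 it lay 2.82-fold above the other ap1/cal Mock libraries. In Col-0 SNP 3 it lay 1.48-fold below, and in Col-0 Mock 1 2.43-fold above, the other libraries of the group. Over all genes the same comparisons gave median ratios of 1.01, 1.01, 0.999 and 1.02. The 27 nuclear genes for thylakoid subunits had median ratios of 1.05, 1.14, 0.986 and 0.998. In ap1/cal Mock 3, 25 of the 27 lay above the other libraries and 2 below, a far smaller move than that of the plastid transcripts. There the 4 green tissue markers described below were all above (median ratio 1.22), and the 4 root markers all below (0.953). Mitochondrial genome transcripts shared the shift in 3 of these libraries. Their median log2 deviations were -0.81 in ap1/cal SNP 1, 1.07 in ap1/cal Mock 3 and 0.97 in Col-0 Mock 1 (-0.20 in Col-0 SNP 3). The part of these libraries in each result is given below by leaving them out.

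**Figure D1:**
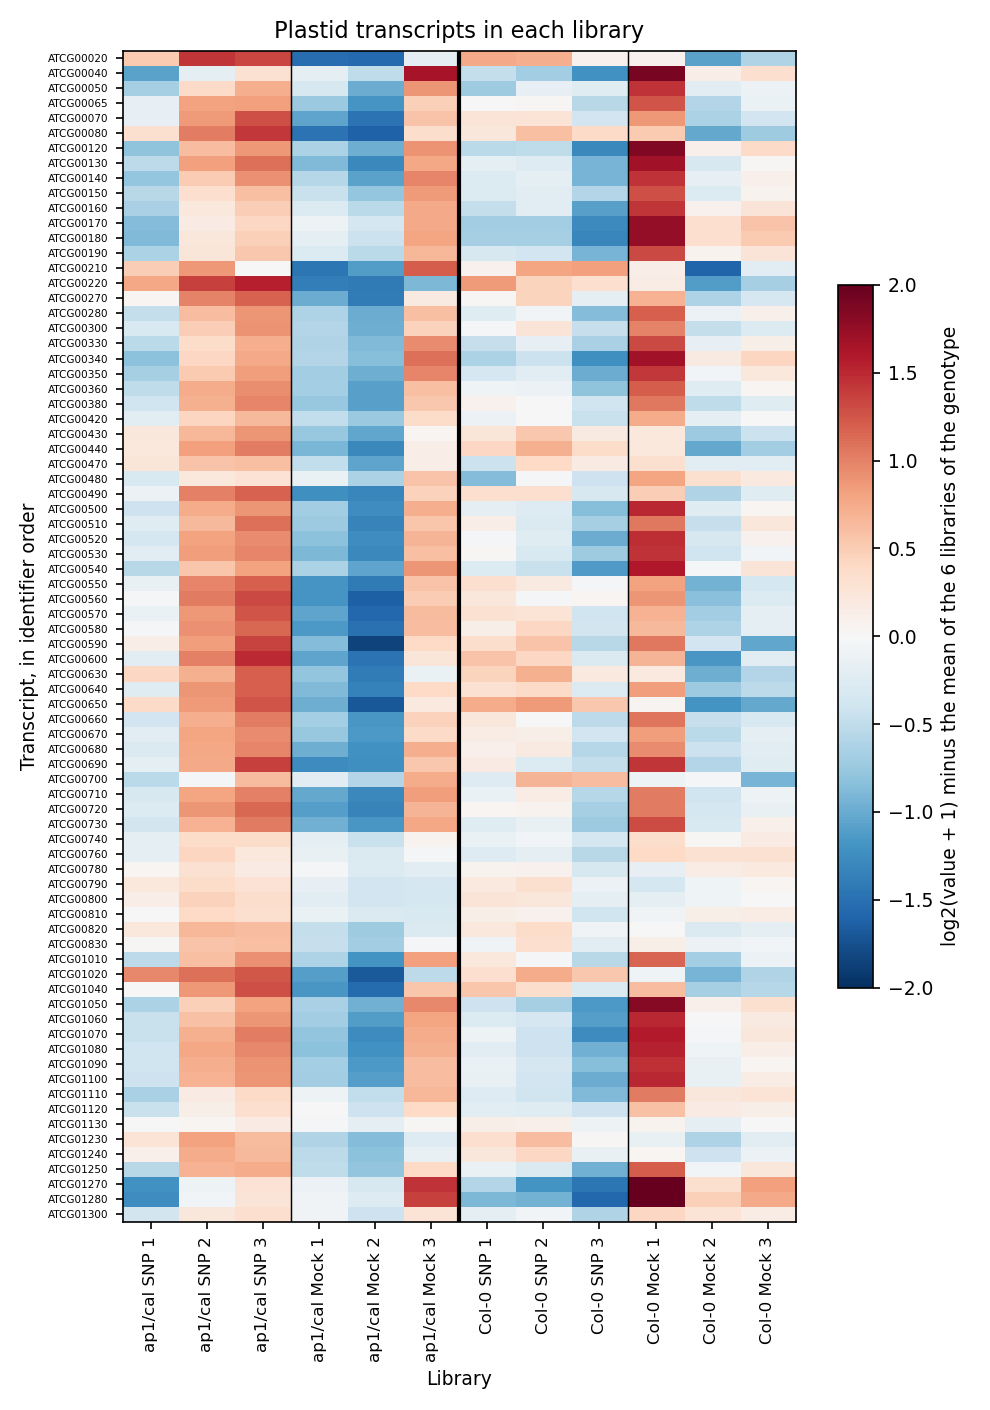
Each row is 1 of 78 plastid transcripts of the 80, in identifier order and each column 1 library. Colour gives log2(value + 1) minus the mean of the 6 libraries of that genotype, red for higher and blue for lower. Col-0 Mock 1 and ap1/cal Mock 3 are red in most rows, and the rows ATCG00740 to ATCG00830 are pale in both.

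The share of library signal that came from plastid transcripts was examined first, since it needs no scaling between libraries. A share also depends on the other transcripts of the library. With every gene scaled to the library total, the median log2 change of all genes with SNP was -0.74 in ap1/cal and -0.51 in Col-0. In ap1/cal SNP the share was 1.43, 2.44 and 2.65% in replicates 1, 2 and 3, against 1.86, 1.53 and 3.45% in ap1/cal Mock. The groups overlapped, with the highest and second lowest values in Mock, and the means were 2.17 ± 0.653% in SNP and 2.28 ± 1.02% in Mock (SD, n = 3 each). In Col-0 SNP the share was 0.850, 1.05 and 0.769%, against 2.18, 1.29 and 1.32% in Col-0 Mock. All Col-0 SNP libraries lay below all Col-0 Mock libraries, and the means were 0.890 ± 0.146% and 1.60 ± 0.508% (SD, n = 3 each).

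On the log2 scale the SNP share differed from Mock by -0.03 in ap1/cal (exact permutation test, two-sided, p = 1) and by -0.81 in Col-0 (p = 0.1), and 0.1 is the smallest p that 20 splits can give. The change in ap1/cal exceeded that in Col-0 by 0.78 (exact permutation of genotype labels within treatment, p = 0.315, 400 splits, smallest possible p 0.005). That permutation assumes no genotype difference within either treatment, while the mean share was higher in ap1/cal in both. Its p is therefore not a test of the responses alone. The change in ap1/cal was 0.31 without Mock 3 and 0.24 without SNP 1. Without Col-0 Mock 1 the Col-0 change was -0.56. Counting error was small, with Wilson 95% intervals no wider than 0.0065 percentage points either side, so the spread between libraries set the precision.

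**Figure D2:**
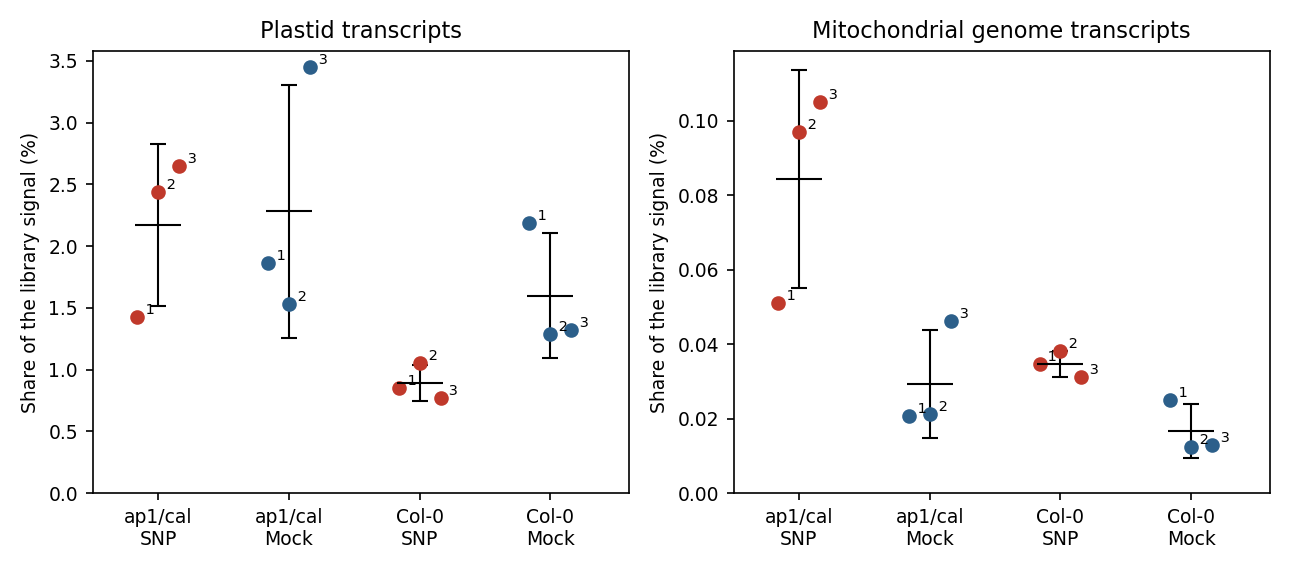
Share of the library signal in percent from plastid transcripts (left) and from mitochondrial genome transcripts (right), with 1 point per library numbered by replicate, the group mean and its SD. Col-0 SNP lies at 0.769 to 1.05% plastid signal, below Col-0 Mock at 1.29 to 2.18%, while the ap1/cal groups overlap.

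In ap1/cal, 29 of the 80 plastid transcripts were called higher with SNP and 0 lower. Calls were made with limma on log2(value + 1) and needed a fold of 1.5 or more together with a p under 0.05 after Benjamini-Hochberg adjustment. Of all genes tested, 29.8% were called higher and 33% lower in ap1/cal, so that the higher calls lay near the background and the lower calls under it. At an unadjusted p under 0.05, 33 transcripts were higher and 0 lower, against 8242 and 8607 of the 20623 genes. The higher count again lay near the background. The median log2 fold change was 0.81 over the plastid transcripts and -0.04 over all genes, and 74 of 80 values were positive. In 17 transcripts every SNP library lay above every Mock library, and in 0 below, against 40.2% and 42.1% of all genes.

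These counts turned on single libraries. Without ap1/cal Mock 3, 52 transcripts were called higher, and without ap1/cal SNP 1, 50 were. Without ap1/cal Mock 1, Mock 2, SNP 2 or SNP 3 the count was 16, 15, 17 or 16. Of the 29 calls, 14 were made in every fit that left out 1 of the 12 libraries. The replicate numbers were taken to pair the ap1/cal libraries from all genes, by the check given with the methods. Over the plastid transcripts that check gave 0.59, -0.31 and 0.65 for same-numbered libraries, and 0.73 for SNP 1 with Mock 2. The numbers thus did not pair all ap1/cal libraries over the plastid transcripts. With the replicate number as a block, 27 were called higher in the fit over both genotypes, and 49 higher and 3 lower in the fit of ap1/cal alone. With values scaled to the library total, the median of all genes moved to -0.74 in ap1/cal, and 6 plastid transcripts were called higher and 8 lower (background 15.1% and 54.1%), with a median of 0.10.

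ATCG00220 had the largest called rise in ap1/cal. Its values were 7238, 10842 and 12392 in ap1/cal SNP, against 1619, 1585 and 2277 in ap1/cal Mock. All SNP libraries lay above all Mock libraries, and the log2 fold change was 2.46 ± 0.28 (SE, limma adjusted p = 2.1e-06).

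ATCG01020 had 12279, 13529 and 14903 in ap1/cal SNP, against 2919, 1964 and 4352 in ap1/cal Mock. The groups did not overlap, and the log2 fold change was 2.21 ± 0.25 (adjusted p = 1.9e-06). ATCG00020 had 25353, 47892 and 44621 in ap1/cal SNP, against 6135, 6015 and 15393 in ap1/cal Mock. They were again separate, with Mock 3 the highest of its group, and the log2 fold change was 2.19 ± 0.37 (adjusted p = 0.00011).

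ATCG00080 had 557, 905 and 1182 in ap1/cal SNP, against 159, 144 and 566 in ap1/cal Mock. Here Mock 3 lay above SNP 1, so the groups overlapped, and the log2 fold change was 1.84 ± 0.48 (adjusted p = 0.0032). ATCG00650 had 938, 1296 and 1726 in ap1/cal SNP, against 366, 222 and 823 in ap1/cal Mock. The groups were separate, with Mock 3 close under SNP 1, and the log2 fold change was 1.65 ± 0.41 (adjusted p = 0.0021). The calls of these 5 transcripts in ap1/cal were kept in every fit that left out 1 library. All 5 were also among the 6 called higher with library-total scaling.

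In Col-0, 8 of the 80 transcripts were called higher with SNP and 15 lower, against 26.9% and 29.1% of all genes, so that both shares lay under the background. The median log2 fold change was -0.36 over the plastid transcripts and -0.02 over all genes, and 51 of 80 values were negative. Every SNP library lay above every Mock library in 7 transcripts and below in 26, against 39.1% and 39.5% of all genes. The lower calls fell to 7 without Col-0 Mock 1 and to 7 without Col-0 SNP 3, and were 22 without Col-0 Mock 2. The higher calls were 3 without Col-0 Mock 2, 4 without Col-0 Mock 3 and 3 without Col-0 SNP 2. With library-total scaling, which moved the median of all genes to -0.51 in Col-0, 2 were called higher and 41 lower (background 15.6% and 45.9%), with a median of -0.86.

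ATCG01280 fell most in Col-0. It had 1128, 1091 and 703 in Col-0 SNP, against 9544, 2915 and 3571 in Col-0 Mock. Mock 1 stood far above the other Mock libraries, yet all SNP libraries were below all Mock libraries, and the log2 fold change was -2.28 ± 0.50 (limma adjusted p = 0.00093). ATCG01270, next in number among the members, had 66.2, 43.2 and 36.2 in Col-0 SNP, against 427, 126 and 178 in Col-0 Mock. The groups did not overlap, and the log2 fold change was -2.15 ± 0.52 (adjusted p = 0.002). ATCG01280 changed by -0.69 ± 0.50 and ATCG01270 by -0.68 ± 0.52 in ap1/cal, and neither was called there, although both were called lower with library-total scaling (-1.40 and -1.39).

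ATCG00170 and ATCG00180 are also neighbours in number. ATCG00170 had 1712, 1716 and 1142 in Col-0 SNP, against 9419, 3481 and 4111 in Col-0 Mock. The groups were separate, with a log2 fold change of -1.78 ± 0.40 (adjusted p = 0.0011). ATCG00180 had 1022, 1022 and 651 in Col-0 SNP, against 5481, 2031 and 2322 in Col-0 Mock, and a log2 fold change of -1.75 ± 0.42 (adjusted p = 0.0018). These 4 calls were made in every fit that left out 1 library. ATCG00040 had 1712, 1473 and 1024 in Col-0 SNP, against 8881, 2610 and 3011 in Col-0 Mock. Its log2 fold change was -1.58 ± 0.55 (adjusted p = 0.018), and the call was lost without Col-0 Mock 1 (-1.03, adjusted p = 0.087) and without Col-0 SNP 3 (-1.37, adjusted p = 0.066).

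The largest called rises in Col-0 included 4 of the 5 transcripts that rose most in ap1/cal. ATCG00650 had 650, 702 and 566 in Col-0 SNP, against 404, 169 and 190 in Col-0 Mock, without overlap and with a log2 fold change of 1.43 ± 0.41 (adjusted p = 0.0059). ATCG00220 had 5242, 3957 and 3665 in Col-0 SNP, against 3217, 1345 and 1827 in Col-0 Mock, and rose by 1.09 ± 0.28 (adjusted p = 0.0029). ATCG01020 had 5650, 7475 and 6543 in Col-0 SNP, against 4242, 2346 and 2938 in Col-0 Mock, and rose by 1.08 ± 0.25 (adjusted p = 0.0014). These 3 calls held in every fit that left out 1 library. With library-total scaling ATCG00650 (0.94) and ATCG00220 (0.59) were the 2 called higher in Col-0, and ATCG01020 was just under the fold (0.58).

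ATCG00020 had 19182, 18780 and 12002 in Col-0 SNP, against 11956, 5401 and 7455 in Col-0 Mock. SNP 3 and Mock 1 were almost level, and the log2 fold change was 1.06 ± 0.37 (adjusted p = 0.02). ATCG00440 had 2531, 3111 and 2456 in Col-0 SNP, against 2196, 936 and 1168 in Col-0 Mock, with a log2 fold change of 1.00 ± 0.35 (adjusted p = 0.018). Both calls were lost without Col-0 Mock 2, Mock 3 or SNP 2, and that of ATCG00020 also without SNP 1, at adjusted p of 0.053 to 0.091. All 8 transcripts called higher in Col-0 were called higher in ap1/cal, and 0 were called lower in Col-0 and higher in ap1/cal, although 45 transcripts had a negative value in Col-0 and a positive one in ap1/cal.

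**Figure D3:**
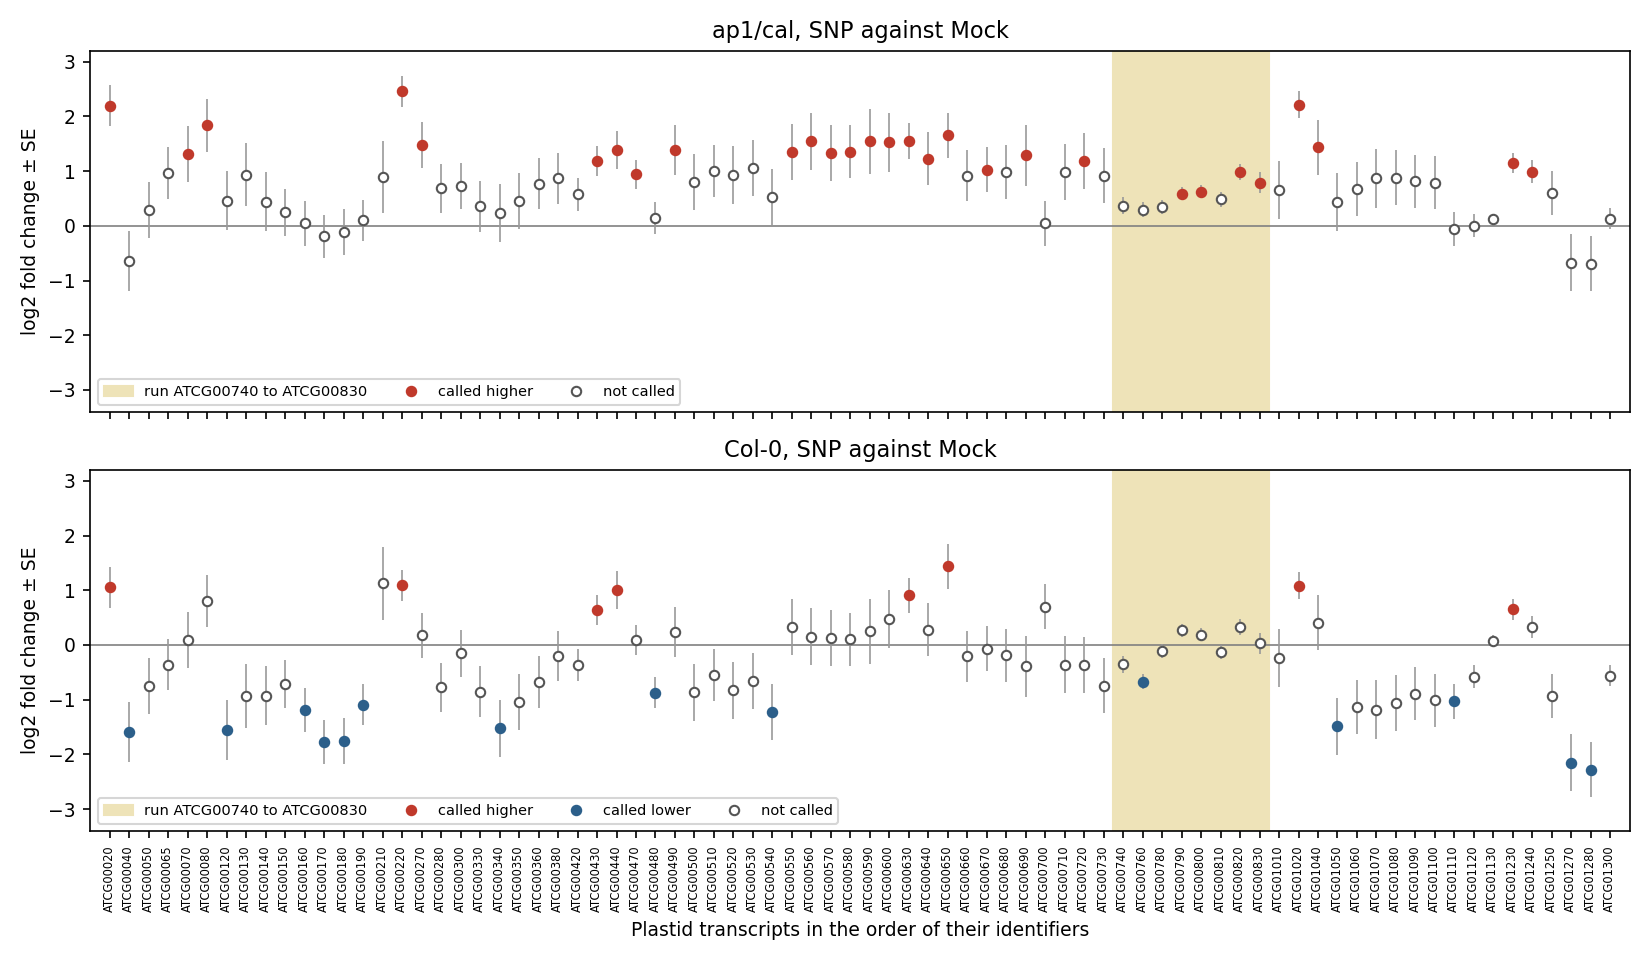
Log2 fold change of SNP against Mock with its SE for 78 of the 80 plastid transcripts in identifier order, ap1/cal above and Col-0 below, filled where called. Of all 80 values, 74 are positive in ap1/cal and 29 in Col-0 (45 and 11 with library-total scaling, not drawn), and the shaded run ATCG00740 to ATCG00830 has small changes and short error bars.

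ATCG00480 held the largest part of the plastid signal, 15.6% on average with no correction for length, and the 5 largest together held 38.0%. It had 86925, 124760 and 131847 in ap1/cal SNP, against 97674, 69317 and 158653 in ap1/cal Mock. These overlapped, with a log2 fold change of 0.14 ± 0.29 (limma adjusted p = 0.67). In Col-0 SNP it had 32668, 58339 and 44714, against 102813, 74343 and 68134 in Col-0 Mock. It was called lower there (-0.87 ± 0.29, adjusted p = 0.015), and the call was lost without Col-0 Mock 1 (-0.69, adjusted p = 0.059) and without Col-0 SNP 1 (-0.66, adjusted p = 0.076).

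The named transcripts were taken next. The rpl20 transcript (ATCG00660) had 1282, 2777 and 3419 in ap1/cal SNP, against 1039, 750 and 2311 in ap1/cal Mock, and 626, 533 and 370 in Col-0 SNP, against 1125, 388 and 434 in Col-0 Mock. The groups overlapped in both genotypes, and neither change was called (0.92 ± 0.47 in ap1/cal, -0.21 ± 0.47 in Col-0). The clpP transcript (ATCG00670) had 4009, 7995 and 8878 in ap1/cal SNP, against 2722, 2075 and 6033 in ap1/cal Mock. It was called higher there (1.02 ± 0.41, limma adjusted p = 0.035), though Mock 3 lay above SNP 1, and the call was lost without ap1/cal Mock 1, Mock 2, SNP 2 or SNP 3 (adjusted p 0.10 to 0.16). In Col-0 clpP had 1843, 1802 and 1272 in SNP, against 2940, 1143 and 1445 in Mock, with -0.07 ± 0.41.

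The cemA transcript (ATCG00530) had 5112, 10732 and 11763 in ap1/cal SNP, against 3204, 2468 and 9152 in ap1/cal Mock, and 1998, 1603 and 1200 in Col-0 SNP, against 5391, 1492 and 1899 in Col-0 Mock. It overlapped in both genotypes and was not called (1.05 ± 0.51 in ap1/cal, -0.66 ± 0.51 in Col-0). ATCG00430 had 14982, 20182 and 23501 in ap1/cal SNP, against 7532, 6204 and 13055 in ap1/cal Mock, without overlap and with 1.18 ± 0.27 (limma adjusted p = 0.0012). In Col-0 it had 9394, 11547 and 8986 in SNP, against 9151, 4798 and 5874 in Mock, and was called higher at 0.64 ± 0.27 (adjusted p = 0.046). The Col-0 call was lost without Col-0 Mock 2, Mock 3, SNP 1, SNP 2 or SNP 3, or without ap1/cal Mock 1 or SNP 2, at adjusted p of 0.054 to 0.18. With library-total scaling ATCG00430 was called in neither genotype (0.47, adjusted p = 0.079 in ap1/cal, and 0.14 in Col-0), nor was clpP in ap1/cal (0.31).

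The 2 responses were then compared directly, as the ap1/cal change minus the Col-0 change. The difference was called more positive in ap1/cal for 8 of the 80 transcripts and more negative for 0, against 7.6% and 6.97% of all genes. At an unadjusted p under 0.05, 39 were more positive and 0 more negative, against 4057 and 3443 of the 20623 genes. The median difference was 1.14 on the log2 scale, against -0.02 over all genes and 0.56 over 55 mitochondrial genome transcripts. Of the 80 plastid values, 78 were positive. The exceptions were ATCG00700, at -0.65 (95% interval -1.91 to 0.61), and ATCG00210, at -0.23 (-2.24 to 1.79), which had as few as 1 estimated read in a library. Across the 80 transcripts, which share libraries and are not replicates, the 2 responses correlated with r = 0.76 (Pearson) and rho = 0.72 (Spearman).

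The count of differences was 52 without ap1/cal Mock 3 and 30 without ap1/cal SNP 1, 15 without Col-0 Mock 2, and 2 to 8 without any other single library. The lowest counts were 2 without Col-0 SNP 3, without ap1/cal Mock 2 or without ap1/cal SNP 3, 3 without Col-0 Mock 3 or ap1/cal SNP 2, 4 without ap1/cal Mock 1, and 5 without Col-0 Mock 1 or Col-0 SNP 1. The test against a fold of 1.5 called 0. With each library scaled to its median plastid transcript, an alternative added after seeing the data, 0 differences were called, 3 transcripts were called higher and 2 lower in ap1/cal (background 9.2% and 30.9%), and 10 higher and 2 lower in Col-0 (background 25.9% and 6.16%). With library-total scaling 4 were called more positive and 0 more negative (background 4.23% and 13.5%), the median was 0.93 and 77 values were positive.

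Of the 8 called differences, 6 fell in the run of 10 consecutive members ATCG00740 to ATCG00830, a stretch chosen after its values were seen. None of the 10 was given a name here. Of all genes, 7.6% were called more positive. The differences in the run were not the larger ones. Their median was 0.69, against 1.21 over the 70 transcripts outside it, where 68 were positive and 2 called. Changes in the run were small, with a median of 0.48 in ap1/cal and -0.12 in Col-0. In ap1/cal all 10 were positive and 4 were called higher (background 29.8%), and in Col-0 0 were called higher and 2 lower (background 26.9% and 29.1%). With library-total scaling 2 of the 10 were positive in ap1/cal and 0 in Col-0, 1 was called lower in ap1/cal and 6 in Col-0, and 2 differences were called.

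ATCG00760 had 838, 1291 and 1111 in ap1/cal SNP, against 869, 788 and 944 in ap1/cal Mock, and 467, 490 and 384 in Col-0 SNP, against 739, 696 and 694 in Col-0 Mock. Only the Col-0 groups were separate, and the difference was 0.97 ± 0.20 (limma adjusted p = 0.0036). Its Col-0 change of -0.67 was no longer past the fold of 1.5 without Col-0 SNP 3 (-0.57). The difference of ATCG00760 was called in every fit that left out 1 library.

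The run moved little in the 2 Mock libraries that stood apart. Its 10 transcripts had median ratios of 1.14 in ap1/cal Mock 3 and 1.03 in Col-0 Mock 1 to the other Mock libraries of the genotype, while the 70 transcripts outside it had 2.88 and 2.52. In the SNP libraries that stood apart it did shift. All 10 lay below the other libraries of the group in ap1/cal SNP 1 and in Col-0 SNP 3, with median log2 deviations of -0.44 and -0.37, against -1.17 and -0.59 for the 70 outside it. Over the 80 transcripts the deviations of ap1/cal Mock 3 and Col-0 Mock 1 correlated with r = 0.88 (Pearson) and rho = 0.71 (Spearman), although these are libraries of different genotypes. ATCG01130, outside the run, also moved little. It had 19778, 20448 and 22361 in ap1/cal SNP, against 19495, 17634 and 20294 in ap1/cal Mock, and 23554, 23168 and 20119 in Col-0 SNP, against 22755, 19116 and 21460 in Col-0 Mock. The groups overlapped in both genotypes.

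**Figure D4:**
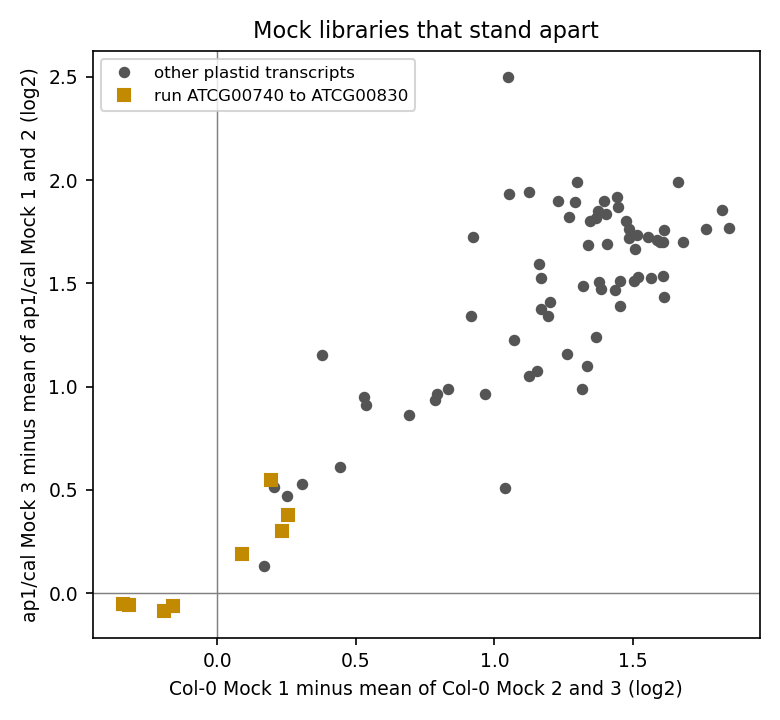
Deviation of Col-0 Mock 1 from the mean of the other Col-0 Mock libraries (x axis, log2) against that of ap1/cal Mock 3 from the other ap1/cal Mock libraries (y axis, log2), with 1 point for each of 78 plastid transcripts. The 70 transcripts outside the run ATCG00740 to ATCG00830 are all above 0 on both axes, and those inside it lie near 0.

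The nuclear genes that serve plastid transcription were examined from a list beside the plastid transcripts. The counts of this and later lists stand beside the shares of all genes called in the same way. Those were 29.8% higher and 33% lower in ap1/cal, and 26.9% and 29.1% in Col-0. With library-total scaling they were 15.1% and 54.1% in ap1/cal, and 15.6% and 45.9% in Col-0. For the difference between genotypes they were 7.6% more positive and 6.97% more negative, and 4.23% and 13.5% with library-total scaling. At an unadjusted p under 0.05, 8242 of the 20623 genes were higher and 8607 lower in ap1/cal, and 7962 and 8008 in Col-0. For the difference, 4057 were more positive and 3443 more negative at that threshold. Among 6 sigma factors, which guide the plastid-encoded polymerase to promoters, 2 rose and 2 fell in ap1/cal, and 3 rose and 0 fell in Col-0 (3 positive and 0 negative at an unadjusted p under 0.05). SIG5, a sigma factor known for its response to stress and light, had 13400, 11779 and 13073 in ap1/cal SNP, against 722, 643 and 633 in ap1/cal Mock, and 19010, 18527 and 15894 in Col-0 SNP, against 885, 946 and 1071 in Col-0 Mock. The groups were far apart, and SIG5 rose by 4.26 ± 0.09 in ap1/cal (limma adjusted p = 2.4e-13) and by 4.20 ± 0.09 in Col-0 (adjusted p = 5.4e-13). SIG3 rose by 0.93 in ap1/cal and by 1.14 in Col-0. SIG1 was called higher in Col-0 (0.87), with 0.39 in ap1/cal, and SIG2 and SIG4 were called lower in ap1/cal (-0.74 and -0.61), with -0.10 and -0.18 in Col-0. The SIG4 call was lost without ap1/cal Mock 1 or SNP 2 (-0.53 and -0.54). SIG6 was not called, and no difference between genotypes was called for a sigma factor (0 of 6, with 2 at an unadjusted p under 0.05). With library-total scaling SIG3 was called higher in Col-0 only and SIG1 in neither genotype. SIG2 and SIG4 were then called lower in Col-0 (-0.60 and -0.68) as well as in ap1/cal (-1.45 and -1.32), and SIG6 was called lower in ap1/cal (-0.93). The difference was then called for SIG1 (-0.69) and SIG2 (-0.85).

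Of the 12 nuclear genes for polymerase-associated proteins, which are built into the plastid-encoded polymerase complex, 8 fell in ap1/cal and 8 fell in Col-0, with medians of -1.12 and -1.13. These are 66.7% in each genotype, beside 33% of all genes called lower in ap1/cal and 29.1% in Col-0. None of the 12 was called higher, PAP9 having 0.30 in ap1/cal and 0.48 in Col-0, under the fold of 1.5. PAP2 fell most, with 261, 195 and 207 in ap1/cal SNP, against 1352, 1321 and 1543 in ap1/cal Mock, and 183, 272 and 281 in Col-0 SNP, against 1419, 1555 and 1442 in Col-0 Mock. The log2 fold change was -2.67 ± 0.15 in ap1/cal and -2.60 ± 0.15 in Col-0 (limma adjusted p = 1.6e-09 and 2.9e-09). PAP11 fell by 1.89 in ap1/cal and 1.86 in Col-0, and PAP8 by 1.76 in each. The difference between genotypes was called for 0 of the 12, and 0 passed an unadjusted p under 0.05.

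Of the 2 phage-type polymerases, RPOTp differed between the genotypes under either scaling and RPOTmp did so with the deposited scaling only. RPOTp, the plastid phage-type polymerase, had 1908, 3068 and 2563 in ap1/cal SNP, against 1512, 1415 and 1520 in ap1/cal Mock, and 1121, 1222 and 866 in Col-0 SNP, against 1637, 1888 and 1506 in Col-0 Mock. SNP lay above Mock in ap1/cal and below it in Col-0, with no overlap. The change was 0.73 ± 0.16 in ap1/cal and -0.66 ± 0.16 in Col-0, and the difference 1.39 ± 0.22 (limma adjusted p = 9.0e-04), which held in every fit that left out 1 library and with library-total scaling (1.18). The ap1/cal call was lost without ap1/cal SNP 2 (0.58) and with library-total scaling, and the Col-0 call without Col-0 Mock 2 (-0.57) or Col-0 SNP 3 (-0.51). RPOTmp, which serves mitochondria as well as plastids, changed by -0.47 in ap1/cal and was called lower in Col-0 (-1.12), with a difference of 0.65 ± 0.16 (adjusted p = 0.013). That difference was no longer past the fold of 1.5 without Col-0 Mock 2 (0.58), ap1/cal Mock 1 (0.58) or ap1/cal SNP 2 (0.56). With library-total scaling it was not called (0.44, adjusted p = 0.093), and RPOTmp was called lower in both genotypes (-1.18 in ap1/cal, -1.62 in Col-0).

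Among 6 nuclear genes for plastid RNA turnover, 1 rose and 3 fell in ap1/cal, and 1 rose and 2 fell in Col-0. RNJ, the plastid ribonuclease J, fell by 1.93 in ap1/cal and 1.68 in Col-0, and PNP, the plastid polynucleotide phosphorylase, fell by 0.87 in ap1/cal and 0.66 in Col-0. CSP41B, an RNA-binding protein of the stroma, rose by 0.76 in ap1/cal and 0.80 in Col-0, and was not called in either genotype with library-total scaling, where 0 of the 6 rose and 5 fell in ap1/cal and 4 in Col-0.

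**Figure D5:**
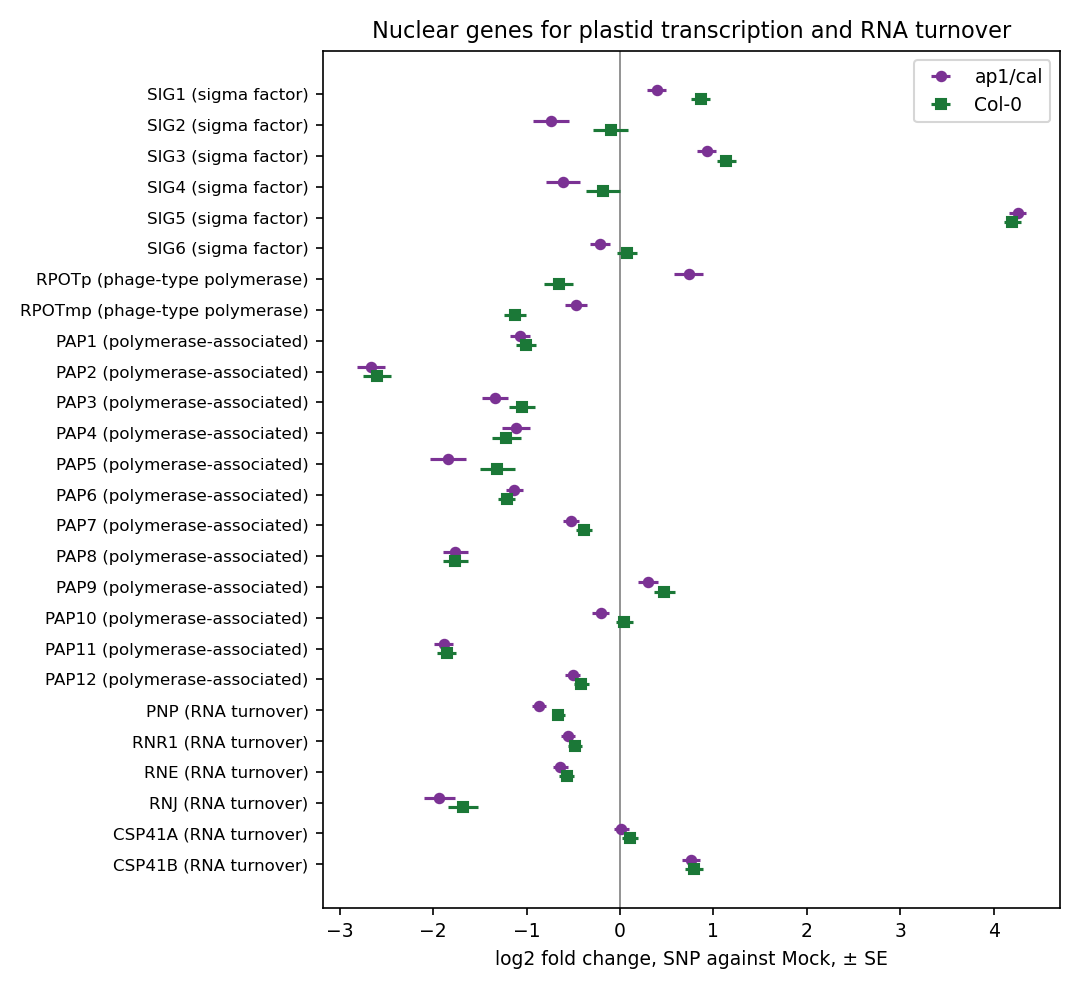
Log2 fold change of SNP against Mock with its SE for 26 nuclear genes, ap1/cal as circles and Col-0 as squares. SIG5 lies at 4.26 in ap1/cal and 4.20 in Col-0, 11 of the 12 polymerase-associated genes lie below 0 in ap1/cal and 10 in Col-0, and RPOTp has opposite signs.

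Nuclear partners of the plastid subunits were read next. Of 27 nuclear genes for subunits of the photosystems, cytochrome b6f and the ATP synthase, 4 rose and 1 fell in ap1/cal, and 3 rose and 0 fell in Col-0 (3 were lower at an unadjusted p under 0.05), with medians of 0.08 and -0.04. PETC, the Rieske protein of cytochrome b6f, rose by 0.80 in ap1/cal and 0.70 in Col-0. PETM of the same complex rose by 0.96 in ap1/cal and 0.67 in Col-0, where the call was lost without Col-0 Mock 2 (0.55). PSAK of photosystem I rose by 0.73 in each. None of the 27 had a called difference between genotypes (0, and 0 at an unadjusted p under 0.05). With library-total scaling 0 of the 27 were called higher, while 16 were called lower in ap1/cal (background 54.1%) and 9 in Col-0 (background 45.9%). The medians were -0.63 and -0.54 (-0.74 and -0.51 over all genes). PSAD2, a photosystem I subunit, had -1.44 in ap1/cal and -0.85 in Col-0 with that scaling, and its difference was called (-0.60). Of 4 Rubisco small subunit genes, 0 rose and 1 fell in ap1/cal, and 2 rose and 1 fell in Col-0. RBCS1B fell by 1.38 in ap1/cal and 0.60 in Col-0, with a difference of -0.78 ± 0.22 (limma adjusted p = 0.025). The Col-0 fall was under the fold of 1.5 without Col-0 Mock 3 (-0.58), SNP 1 (-0.58) or SNP 2 (-0.57). RBCS1A (0.67) and RBCS2B (0.61) rose in Col-0, a call that RBCS2B lost without Col-0 Mock 1 (0.54), and had 0.52 and 0.37 in ap1/cal. Neither rise was called with library-total scaling (0.17 and 0.11).

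Markers of tissues were read beside these values. Of 4 root markers 3 fell in both genotypes. PYK10 fell by 3.33 in ap1/cal and 2.83 in Col-0. COBL9 had log2 fold changes of -5.86 in ap1/cal and -4.79 in Col-0, and EXPA7 of -6.81 in ap1/cal and -3.87 in Col-0, both being root hair genes, while CASP1 of the endodermis had -0.36 in ap1/cal and -0.43 in Col-0 and was not called. The sizes for the root hair genes are limited by values near the floor. In ap1/cal SNP EXPA7 had 2.05, 1.66 and 7.68 and COBL9 3.08, 1.66 and 7.68, and in Col-0 SNP COBL9 had 1.74, 10.8 and 8.16. Of 4 green tissue markers, 2 rose and 1 fell in ap1/cal, and 1 rose and 1 fell in Col-0. CA1, a carbonic anhydrase, rose by 0.64 in ap1/cal and 0.79 in Col-0. The ap1/cal call was lost without ap1/cal Mock 2 (0.53), and with library-total scaling CA1 was called in neither genotype (-0.07 in ap1/cal, 0.29 in Col-0). GLDP1, of photorespiration, was called lower in ap1/cal only (-0.99, with -0.04 in Col-0), CAB3 was called lower in Col-0 (-0.68, with -0.52 in ap1/cal), and LHCB2.1 was called higher in ap1/cal (0.70, with 0.49 in Col-0). With library-total scaling CAB3 was called lower in both genotypes (-1.23 in ap1/cal, -1.18 in Col-0), LHCB2.1 in neither (-0.01 in each), and CASP1 was called lower in both (-1.07 in ap1/cal, -0.93 in Col-0). The part of the makeup of the seedlings in the plastid values was not tested.

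The mitochondrial genome, the other organelle genome, was read beside the plastid one. Of 55 of its transcripts, 48 rose and 0 fell in ap1/cal, where all 55 were positive, and 38 rose and 1 fell in Col-0, where 51 were positive. These are 87.3% and 69.1% called higher, beside 29.8% and 26.9% of all genes. With library-total scaling 45 were called higher in ap1/cal and 34 in Col-0. The ap1/cal change minus the Col-0 change was positive in 52 of the 55, with a median of 0.56 and 1 called more positive. It was positive in 45 with library-total scaling, with a median of 0.39 and 0 called. The difference between the genomes was not tested. Its share of the library signal was 0.0844 ± 0.0293% in ap1/cal SNP, against 0.0294 ± 0.0145% in ap1/cal Mock, and 0.0347 ± 0.00357% in Col-0 SNP, against 0.0168 ± 0.00718% in Col-0 Mock (SD, n = 3 each).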

How the data were processed

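Poly(A)-selected RNA of 12 seedling libraries was sequenced, and per the methods of the study 75-base reads were mapped to TAIR10 with STAR. Those methods describe the libraries as strand-specific. FastQC and DESeq2 are named in the processing notes, while the counter and any use of strand in counting are not given in the sources used here. The deposited values are a normalized signal that the authors made by dividing estimated reads by 1 size factor per library, separately in 2 tables of 6 libraries. At a tolerance of 0.001 all low values of genes with 1 transcript were whole multiples of 1 step per library, but only 66.8 to 70.2% of all low values, so no count test was run.

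Genes with a value of at least 10 in 3 or more libraries (20623 of 21623 in both tables) were tested as log2(value + 1) with limma 3.58.1 in R 4.3.3, with 4 group means over 12 libraries, a mean-variance trend and Benjamini-Hochberg adjustment. A call needed a fold of 1.5 or more and an adjusted p under 0.05. Fold changes on this scale understate those of low genes. Shares were compared by exact two-sided permutation over libraries in Python 3.11.15 (intervals by Wilson, 95%, counting error only). The script was tested on simulated data. The methods of the study give 3 biological replicates per condition for RNA sequencing. No source states that these are separate cultures, so p-values measure the spread between these libraries.

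Named were the transcripts with a name in the annotation, the one with the highest signal, the 5 called members with the largest rise and fall per genotype, those with the smallest p for the difference (5 more positive; 2 were more negative), SIG1 to SIG6 and the Rubisco small subunits. The planned choice by functional class could not be made, since 0 plastid identifiers matched a locus tag of the annotation used here (TAIR10.1) and 4 of the members described were named in its notes. Some members are counted in all totals but are not reported here by name or value. ATCG00740, ATCG00820, ATCG01130 and examples from other lists were chosen after their values were seen. The members and lists were chosen with earlier results of these data known. Lists were sigma factors, phage-type polymerases, polymerase-associated proteins, RNA turnover, thylakoid subunits, Rubisco small subunits, root and green markers, and mitochondrial transcripts.

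Deviations of same-numbered SNP and Mock libraries over all genes had correlations of 0.12, 0.12 and 0.17 in ap1/cal, where the numbers were taken to pair the libraries from the data alone, and 0.06, 0.06 and -0.05 in Col-0, where they were not. Alternatives were the pseudocount, the filter, the scaling, a replicate block, a test against the fold, separate fits and leaving out libraries.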

Additional observations from a re-analysis of the deposited data

Results flagged for a closer look

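The response to SNP differed between ap1/cal and Col-0 by a direct test of the difference (limma, a fold of 1.5 or more and a p under 0.05 adjusted over all genes) for 8 of the 80 plastid transcripts. This share of 10% lay near the 7.6% of all genes called more positive. The test against a fold of 1.5 called 0 of the 80. Scaling to the median plastid transcript, added after seeing the data, also called 0. On the log2 scale, ap1/cal minus Col-0, the differences reported here were 1.37 for ATCG00220, 1.13 for ATCG01020, 0.97 for ATCG00760, 0.72 for ATCG00740, 0.66 for ATCG00820 and 0.61 for ATCG00810. For ATCG00220 and ATCG01020 SNP raised the level in both genotypes, more so in ap1/cal.

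The call of ATCG00760 was made in each of the 12 fits that left out 1 library, and the other calls given here were not. That of ATCG00220 was lost without Col-0 SNP 2 or 3, ap1/cal Mock 1 or 2, or ap1/cal SNP 3 (adjusted p 0.050 to 0.064), and that of ATCG01020 without Col-0 Mock 1 or 3, Col-0 SNP 1 or 3, ap1/cal Mock 1 or 2, or ap1/cal SNP 2 or 3 (0.057 to 0.079). ATCG00810 lost its call without Col-0 Mock 2 or 3, Col-0 SNP 3, ap1/cal Mock 2 or 3, or ap1/cal SNP 2 or 3 (0.051 to 0.075). ATCG00740 and ATCG00820 lost theirs without Col-0 Mock 1 or 3, Col-0 SNP 1 or 3, ap1/cal Mock 1 or 2, or ap1/cal SNP 2 or 3 (0.055 to 0.094). With library-total scaling ATCG00220 (1.16), ATCG01020 (0.92) and ATCG00760 (0.76) were called, and ATCG00740 (0.51, adjusted p = 0.059), ATCG00820 (0.44, adjusted p = 0.074) and ATCG00810 (0.40, adjusted p = 0.12) were not.

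The same test gave differences for 5 nuclear genes of the lists, beside 7.6% of all genes called more positive and 6.97% more negative. Called were 2 of 2 phage-type polymerases, 1 of 4 Rubisco small subunits, 1 of 4 green markers and 1 of 4 root markers. Among 6 sigma factors, 12 polymerase-associated proteins, 6 RNA turnover genes and 27 thylakoid subunits, 0 were called. The differences were 1.39 for RPOTp, 0.65 for RPOTmp, -0.78 for RBCS1B, -0.95 for GLDP1 and -2.94 for EXPA7. EXPA7 lay near the floor in ap1/cal SNP (2.05, 1.66 and 7.68), which limits what the size of its difference can say. That of RPOTmp was lost without Col-0 Mock 2 (0.58), ap1/cal Mock 1 (0.58) or ap1/cal SNP 2 (0.56) and with library-total scaling (0.44). The difference of RBCS1B was lost without Col-0 SNP 3 (-0.72, adjusted p = 0.068), ap1/cal Mock 3 (-0.68, adjusted p = 0.052) or ap1/cal SNP 2, where the fold was under 1.5 (-0.55).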

How the results depend on the processing

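The counts of called transcripts depended on the scaling, the libraries and the fit. In the order ap1/cal higher, Col-0 higher, Col-0 lower and difference more positive, which were 29, 8, 15 and 8, library-total scaling gave 6, 2, 41 and 4 (and 8 lower in ap1/cal), upper-quartile scaling 14, 3, 28 and 5, and the test against a fold of 1.5 gave 10, 0, 4 and 0. Scaling to the median plastid transcript, added after seeing the data, gave 3 higher and 2 lower in ap1/cal, 2 lower in Col-0 and 0 differences. Leaving out 1 library gave 15 to 52, 3 to 9, 7 to 22 and 2 to 52, with 0 lower in ap1/cal and 0 more negative differences. Without Col-0 Mock 1 and ap1/cal Mock 3 together, also added, 59 were higher in ap1/cal and 44 differed. Fits of each genotype alone called 23 lower in Col-0. With a replicate block in these fits, added after seeing the data, 49 were higher and 3 lower in ap1/cal, and 32 lower in Col-0. The planned block over 12 libraries gave 27, 8, 14 and 7. The block is not a pairing stated in the labels, and over the plastid transcripts the deviations of ap1/cal SNP 2 and Mock 2 correlated with r = -0.31. The ap1/cal share change of -0.03 was 0.0596 without ATCG00480 and -0.27 to 0.31 without single libraries, that of Col-0 -0.94 to -0.56 and their difference 0.53 to 1.12. With plastid-median scaling, which by its construction removes a change common to the plastid transcripts, the differences turned to -0.23 for ATCG01020, -0.39 for ATCG00760, -0.75 for ATCG00810, -0.65 for ATCG00740, -0.71 for ATCG00820 and -0.71 for RPOTmp, the Col-0 changes to 0.0441 for ATCG00760, 0.11 for RBCS1B, 0.0603 for RPOTp, 0.0563 for PNP and 0.0342 for CAB3, and CA1 in ap1/cal to -0.0078. With library-total scaling CA1 was -0.0721 and LHCB2.1 -0.0101 in ap1/cal. Otherwise the cause was not tested. The pseudocount and filter moved no count by over 1.5 times. Not run were fits without plastid genes that share sequence and without rRNA and tRNA genes, since most identifiers had no name here. Low depth limits ATCG00210 and ATCG00700.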
